A study of Rattus norvegicus with 12 samples.

Results

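Ribosomal protein genes of the rat lens were examined across 12 microarrays of ICR and SD rats. A gene was taken as a member if a probe set of the array carried a lone symbol starting with Rpl or Rps and a digit, or the symbol *Rplp0*, *Rplp1*, *Rplp2* or *Rpsa*, and kinases such as those named Rps6k, *Rps19bp1* and pseudogene symbols were left out. This gave 146 of 18166 named genes, 99 of the large and 47 of the small ribosomal subunit. Of these, 55 were principal genes, 87 were numbered copies whose symbols end in l and a number (such as *Rpl36l6*), and 4 were paralogues (*Rpl3l*, *Rpl22l1*, *Rpl7l1* and *Rps4y2*). Symbols alone decided membership, and the RefSeq annotation lists 5 of the 146 as pseudogenes and 1 as a transcribed pseudogene. Where a gene had several probe sets, the one with the highest mean over the ICR arrays was used. ICR/Ihr rats develop hereditary cataract, and their lenses gave 3 arrays each at 4 weeks (clear) and at 8 and 10 weeks (with cortical opacity). SD (Sprague Dawley) rats, an outbred strain that served as the wild type, gave 1 array of clear lens at each of the same ages. All animals were male and none was treated. Whether the arrays of an age came from separate animals or from pooled lenses, and what a replicate number marks, is not given in the sources used here. The p-values therefore reflect the variation among these arrays, part of which may be technical.

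A ribosome joins a small subunit, which reads the messenger RNA, to a large subunit, which forms peptide bonds and passes the chain out through an exit tunnel. Messenger RNAs of ribosomal proteins typically begin with an unbroken run of C and T bases, the terminal oligopyrimidine tract, through which the mTOR kinase and the protein Larp1 control their translation as a group. Cells of the lens epithelium and young fibre cells carry ribosomes, and maturing fibre cells degrade their organelles and cease to make protein.

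The starts of these genes are shown because the tract is typical of messenger RNAs of ribosomal proteins, though membership here was set by symbol alone. RefSeq promoters of build GRCr8 matched 114 of the 146 members by gene ID, 68 of them among the members tested below. Each window holds 30 bases, 15 before the annotated transcription start and 15 from it, on the transcript strand. Capitals mark the longest run of C and T bases in the window.
*Rpl34*: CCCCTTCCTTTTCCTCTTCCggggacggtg
*Rpl29*: gggCCTTTCTCTTTCTCTTCCggtcccagg
*Rpl35*: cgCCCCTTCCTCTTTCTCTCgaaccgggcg
*Rps15*: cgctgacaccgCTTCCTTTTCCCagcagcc
*Rpl10a*: gaaaccttctgCCTTCTTTTCCggttcccg
*Rps24*: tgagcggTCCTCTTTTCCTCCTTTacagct
*Rpl10*: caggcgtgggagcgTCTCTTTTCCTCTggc
*Rplp0*: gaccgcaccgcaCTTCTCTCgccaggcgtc
*Rpl15l1*: aataaatctttagCCTTTCCTCTagtggca
*Rpl36*: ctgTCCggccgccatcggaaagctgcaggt
*Rps3a*: gagttgtacttccgCCCTTTTggctctcag
*Rps19*: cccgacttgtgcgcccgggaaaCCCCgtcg
*Rpl29l1*: cagtggCTTataactggggaagagtgttgt
The window of *Rpl34* lies at chr2:221962269-221962298 (minus strand), that of *Rpl36* at chr9:1533765-1533794 (plus strand), that of *Rps3a* at chr2:173827028-173827057 (minus strand) and that of *Rps24* at chr16:96502-96531 (plus strand). A run of 8 or more C and T bases was found in this window in 29 of 45 principal genes (64.4%) and 15 of 65 numbered copies (23.1%), and in 11.4% of all 27457 promoters. The letters CTTTCC, searched on the transcript strand of the same window, stood in 24.4% of the principal genes, 4.62% of the copies and 1.3% of all promoters. A run can lie wholly before the annotated start, as in *Rpl13a* and *Rpl21*, so these are not counts of genes with the tract. A match is a description of the letters and not of a working site.

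Of the 146 members, 86 reached a log2 signal of 5 (the study's own minimum) on at least 1 of the 9 ICR arrays and were tested among 4546 genes, and 60 were not. The probe sets of 10 principal genes stayed below 5 on all ICR arrays, among them those of *Rps6*, the target of S6 kinase, and of *Rpl5*, a partner of *Rpl11*, which says nothing of the genes' RNA beyond these probe sets. The 86 were 45 principal genes, 40 copies and *Rpl7l1*, with 60 of the large and 26 of the small subunit. On all 9 ICR arrays the signal reached 5 in 72 of them. *Rpl10l4*, *Rpl27al7*, *Rpl29l1*, *Rps16* and *Rps26l6* were tested only through the arrays numbered replicate 1. Signals of probe sets for near-identical copies can share RNA with the parent gene, so values of the numbered copies are uncertain. In whole lenses, fewer cells of a type and less RNA per cell cannot be told apart.

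The 3 ICR arrays numbered replicate 1, 1 at each age, stood apart from the other 6. They were set against the 6 because earlier results of these data had shown them apart. The p-values for the replicate 1 shift therefore describe a shift between arrays picked for their separation, not a condition. On the leading principal component of all genes tested (67.6% of the variance) all 3 lay on the other side of 0 from the 6. Of the lens markers, 6 of 6 epithelial genes (among them *Pax6*) and all 7 fibre genes that were named in the table (among them *Mip*) reached the minimum, while 0 of the 5 retina genes and 0 of the 5 immune genes named did. Across genes, which are not independent replicates, arrays of 1 age correlated with coefficients of 0.848 to 0.974.

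The ribosomal protein genes were higher in the replicate 1 arrays at every age. The median over the 86 tested members of the deviation from each gene's ICR mean was 0.83, 0.91 and 0.70 on the log2 scale in the 4-, 8- and 10-week replicate 1 arrays. In the 6 arrays numbered 2 and 3 it lay between −0.44 and −0.28, and in the 3 SD arrays between −0.31 and −0.21. The SD medians overlapped those of replicates 2 and 3 and were all below those of replicate 1. The median of all genes tested was between 0.05 and 0.26 in the replicate 1 arrays, between −0.11 and −0.05 in replicates 2 and 3 and between −0.20 and −0.03 in SD.

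**Figure D1:**
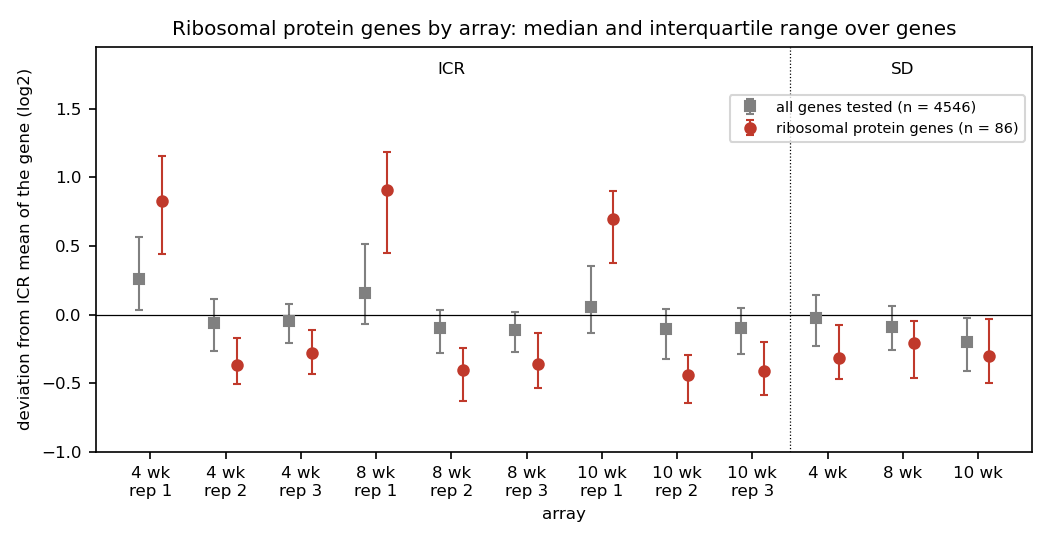
Median deviation in log2 signal from the ICR mean of each gene (y axis) on each of the 12 arrays (x axis), for the 86 tested ribosomal protein genes (circles) and all 4546 genes tested (squares), with bars for the interquartile range over genes. The ribosomal medians are 0.70 to 0.91 in the 3 ICR replicate 1 arrays and −0.44 to −0.21 in the other 9 arrays.

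*Rpl34*, a protein of the large subunit, had signals of 10.59, 10.68 and 10.83 in the 4-, 8- and 10-week replicate 1 arrays. Replicates 2 and 3 gave 8.66 and 8.63 at 4 weeks, 8.47 and 8.58 at 8 weeks, and 8.58 and 8.68 at 10 weeks, and SD gave 8.76, 8.81 and 8.48. All 3 replicate 1 arrays were above all 9 others. The shift of replicate 1, taken with age in the fit as replicate 1 minus the mean of replicates 2 and 3, was 2.10 (standard error 0.10, adjusted p = 3.46e-07 from limma). *Rpl36*, also of the large subunit, had the largest shift of a principal gene, with 10.25, 9.98 and 10.45 in replicate 1, between 7.68 and 7.88 in replicates 2 and 3, and between 7.94 and 8.10 in SD (shift 2.45, standard error 0.11, adjusted p = 3.46e-07 from limma). Its copies *Rpl36l6*, *Rpl36l3* and *Rpl36l2* shifted by 2.39, 2.27 and 2.17. The largest shifts of all members were those of the copies *Rpl28l1* (2.71) and *Rpl29l1* (2.62), the latter tested only through replicate 1. *Rpl28l1* is annotated as a pseudogene. Its signals lay around or below the minimum outside replicate 1, between 4.48 and 5.31 in replicates 2 and 3 and between 4.31 and 4.93 in SD.

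Of the 86 tested members, 74 were called in limma, 69 higher and 5 lower in replicate 1, beside 47.8% of all genes tested called, 42.2% higher and 5.57% lower. The median shift was 1.24 over the members and 0.22 over all genes tested. Since a member can pass the minimum through its replicate 1 arrays, the calls were also counted, as a choice made after seeing the data, over tested genes with a mean signal of 5 or more on the SD arrays, which the comparison does not use. This gave 62 higher and 4 lower of 76 members, with a median shift of 1.24, beside 37.4% of 3137 genes called higher and 6.28% lower, with a median of 0.16. With a mean of 5 or more on the ICR arrays, a limit that replicate 1 still raises for some members, 66 of 81 were higher and 4 lower, beside 40.7% of 3359 genes called higher. With no minimum, 80 of all 146 members were higher and 6 lower, while 2867 of 18166 genes were called in either direction, and the median shift was lower, at 0.69 over the 146. Shifts above 1 were seen in 54 of the 86 members (62.8%) and in 14.0% of all genes tested. The arrays did not overlap, with all 3 replicate 1 arrays above all 6 others, in 70 members, beside 35% of all genes tested, and with all 3 below in 4, beside 4.53%. With every array shifted to the same median, 65 members were higher and 7 lower, with a median of 0.93 over the members and −0.09 over all genes tested. With cyclic loess, 64 were higher and 7 lower, with medians of 0.91 and −0.06. Under these scalings 0 of the members called in the deposited scale changed sign.

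**Figure D2:**
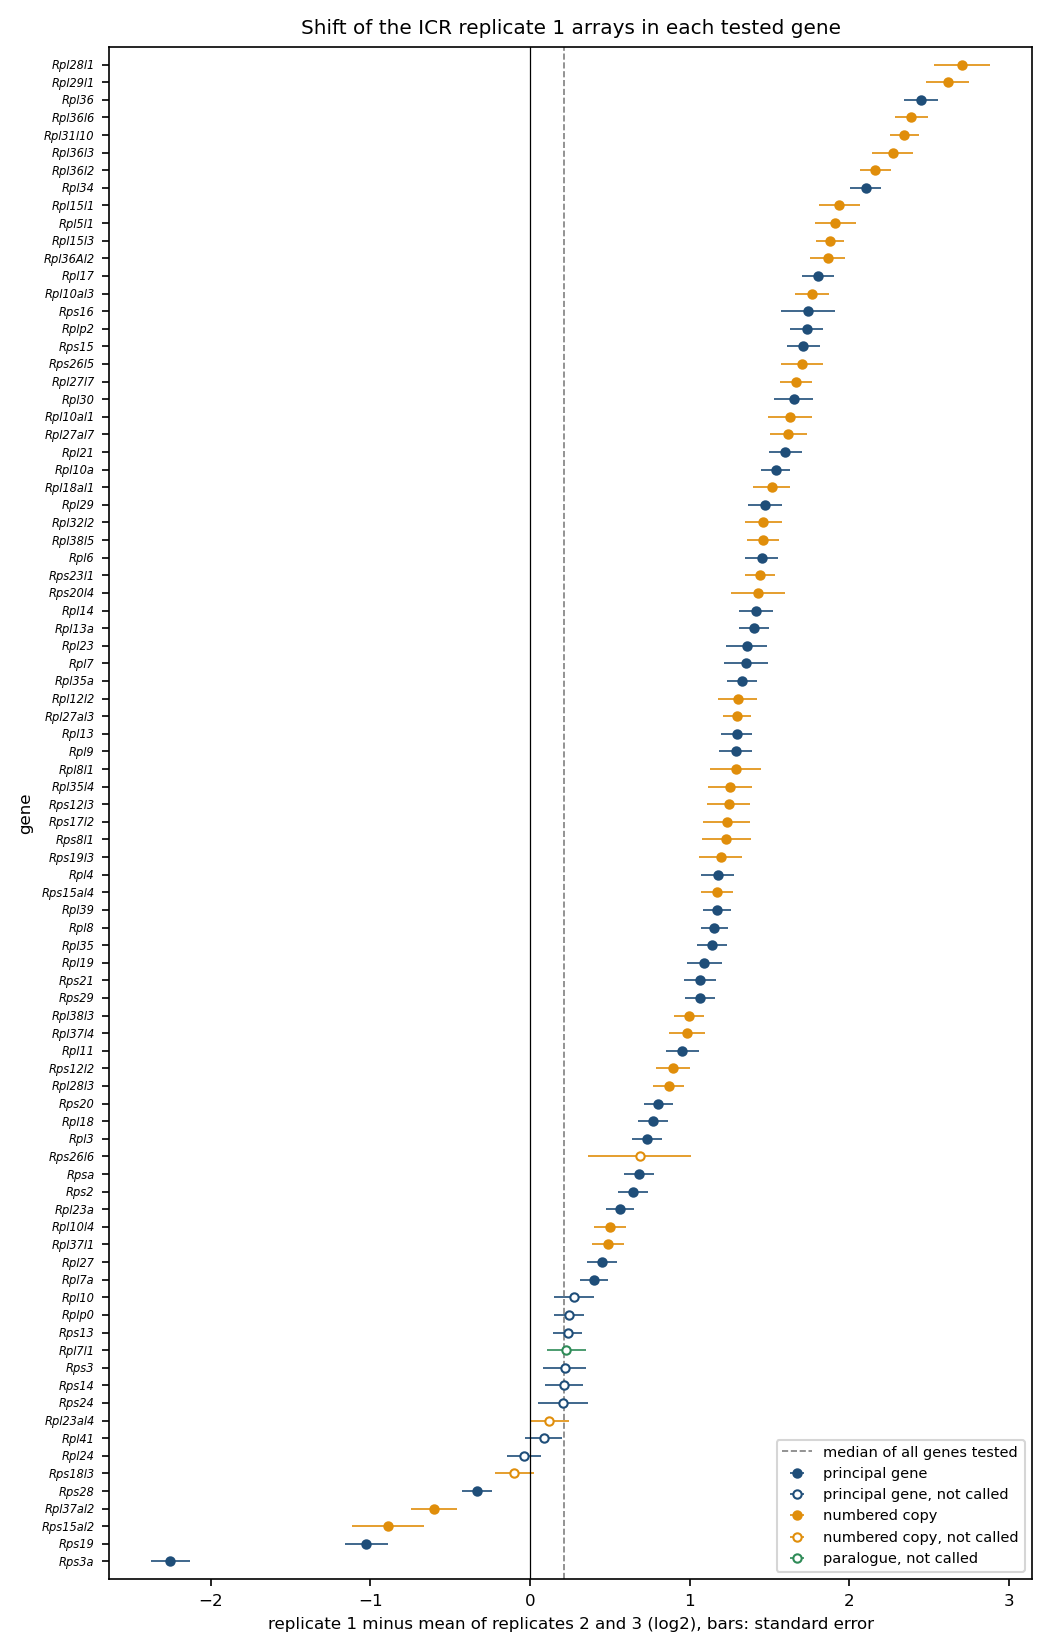
Difference in log2 signal between ICR replicate 1 and the mean of replicates 2 and 3 (x axis, bars are standard errors) for each of the 86 tested ribosomal protein genes (y axis), by kind of gene. Filled points passed the limma test; 69 lie to the right of 0 and 5 to the left, and the dashed line marks the median of all genes tested at 0.22.

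By subunit, 53 of 60 large-subunit genes were higher and 1 was lower (median 1.34), and 16 of 26 small-subunit genes were higher and 4 were lower (median 0.85). By kind, 34 of 45 principal genes were higher and 3 lower (median 1.09), and 35 of 40 copies were higher and 2 lower (median 1.37). Of all genes tested, 42.2% were higher and 5.57% lower. Some members of these classes were tested only through replicate 1. Among genes whose mean SD signal reached the minimum, 47 of 54 large-subunit and 15 of 22 small-subunit genes were higher. In that set 33 of 43 principal genes and 29 of 32 copies were higher, beside 37.4% of all genes. The difference between these classes was not tested.

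All 6 tested genes of the exit tunnel and its rim were called higher in replicate 1 in the probe sets used, beside 42.2% of all genes tested. *Rpl17* (1.81), *Rpl4* (1.18), *Rpl39* (1.17), *Rpl35* (1.14), *Rpl19* (1.09) and *Rpl23a* (0.57) encode proteins that line the tunnel or surround its mouth. The other probe set of *Rpl23a*, with a mean ICR signal of 6.48, shifted by −0.76. For *Rpl17*, the signals were 10.80, 11.12 and 10.87 in the 4-, 8- and 10-week replicate 1 arrays, between 9.02 and 9.24 in replicates 2 and 3, and between 9.30 and 9.38 in SD.

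The stalk of the large subunit, which recruits elongation factors, was split between its members. *Rplp2* was at 9.18, 9.24 and 9.18 in replicate 1, between 7.26 and 7.70 in replicates 2 and 3 and between 7.66 and 7.90 in SD (shift 1.73, standard error 0.10, adjusted p = 9.08e-07 from limma). *Rplp0*, which anchors the stalk and serves as a reference gene in RT-qPCR, was at 8.85, 8.71 and 8.80 in replicate 1 and between 8.37 and 8.73 in replicates 2 and 3, so its arrays overlapped (shift 0.24, standard error 0.10, adjusted p = 0.0597 from limma). It passed the test without ICR 8-week replicate 3, at 0.28, and with eBayes set to a robust variance trend, at 0.24, and it was at −0.06 and −0.15 under the other scalings. The other reference genes tested, *Rpl13a* and *Rpl19*, shifted by 1.40 and 1.09.

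*Rpl11*, which binds the 5S ribosomal RNA and the p53 regulator Mdm2, shifted by 0.96. Of the genes that form the messenger RNA channel and decoding site, *Rps15* (1.71) and *Rps2* (0.65) were higher and *Rps3* was at 0.22 (adjusted p = 0.212 from limma). *Rpsa*, a small-subunit protein known also as the laminin receptor, shifted by 0.68. Of 4 tested genes that are mutated in Diamond-Blackfan anaemia in humans, *Rpl35a* (1.33) and *Rpl11* were higher, *Rps19* was lower, and *Rps24* was at 0.21. The 4 probe sets of *Rpl35a* shifted by between 0.22 and 1.33, and the one used had the largest shift. Among paralogues and their parent genes, *Rpl7* (1.35), *Rpl3* (0.74) and *Rpl39* were higher and *Rps15al2* was lower (−0.89), while *Rpl10* (0.28) and *Rpl7l1* (0.23) were not called. *Rps3*, *Rps24*, *Rpl10* and *Rpl7l1* were below 0 under both other scalings, and *Rpl23a* was not called under cyclic loess (0.17).

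The 5 members that were lower in replicate 1 were *Rps3a*, *Rps19*, *Rps28* and the copies *Rps15al2* and *Rpl37al2*. *Rps3a*, of the small subunit, was at 5.43, 5.22 and 4.87 in the 4-, 8- and 10-week replicate 1 arrays. In replicates 2 and 3 it was between 7.32 and 7.71, and in SD between 7.24 and 7.74. The groups did not overlap, and the shift of −2.25 (standard error 0.12, adjusted p = 6.70e-07 from limma) ranked 1 among the falls of all genes tested. *Rps19* was at 8.02, 7.30 and 7.73 in replicate 1, between 8.53 and 8.83 in replicates 2 and 3, and between 8.77 and 8.78 in SD (shift −1.03, standard error 0.13, adjusted p = 0.000129 from limma). Its other probe set, also with a mean above 5, shifted by 0.51, and with the mean of its probe sets the gene was at −0.26 and was not called. *Rps28* shifted by −0.33 and *Rpl37al2* by −0.60. *Rps15al2* (−0.89) was tested only through ICR 4-week replicate 3, at 5.15, and its replicate 1 arrays were at 3.47, 3.82 and 4.43, so its call rests on signals around or below the minimum.

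The 12 members that were not called had shifts between −0.10 and 0.69. *Rpl41*, which encodes a very small basic protein, was at 10.62, 11.12 and 11.35 in replicate 1 and between 10.76 and 11.11 in replicates 2 and 3, with a shift of 0.09. *Rpl24*, of the large subunit, was at 7.52, 7.66 and 7.24 in replicate 1 and between 7.36 and 7.64 in replicates 2 and 3, with a shift of −0.04. In both genes the groups overlapped. Under both other scalings *Rpl24* was called lower, at −0.34 and −0.36, and so was the copy *Rps18l3*, at −0.40 and −0.39.

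**Figure D3:**
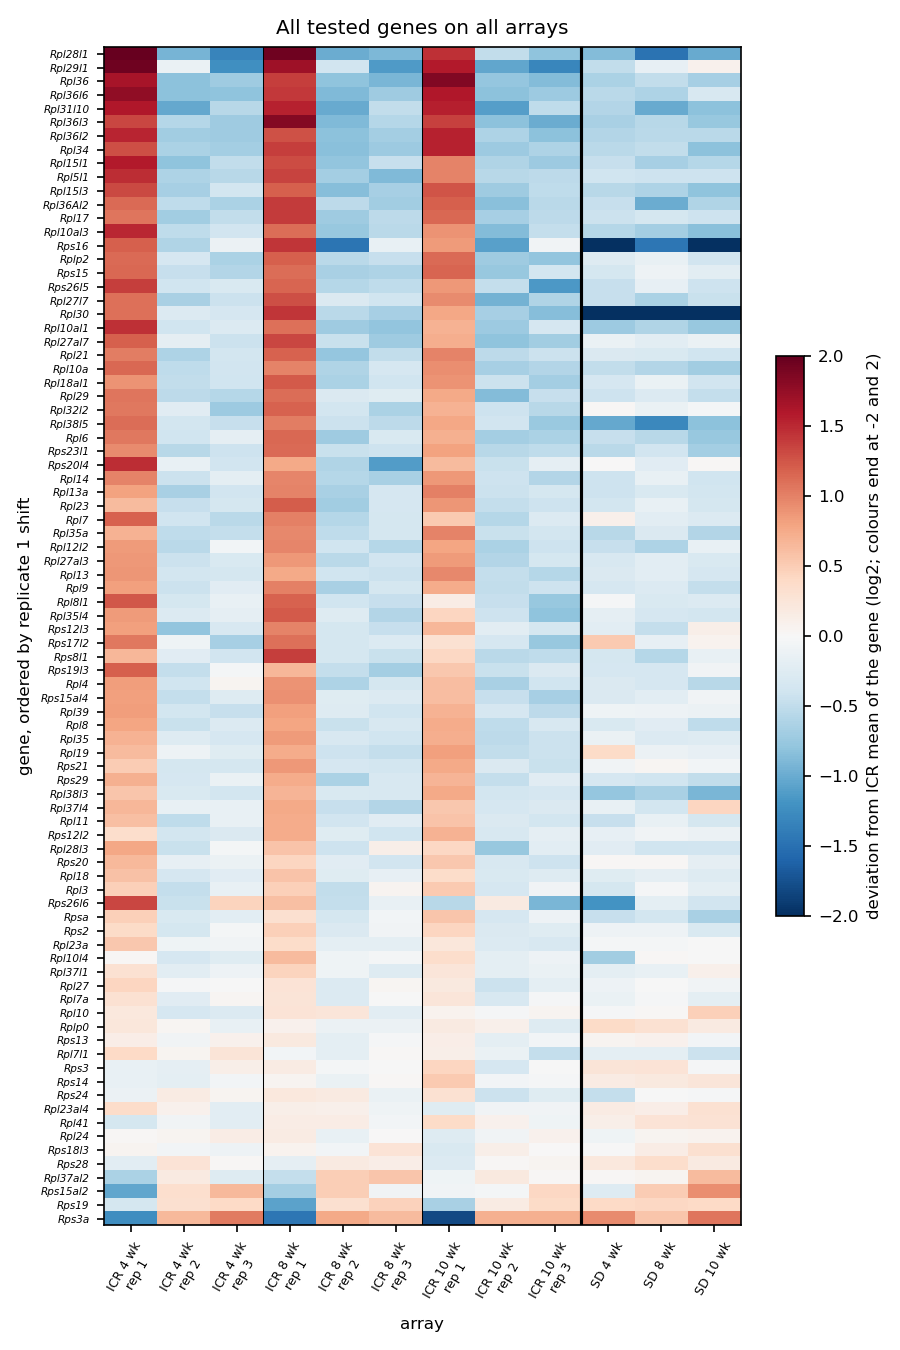
Deviation in log2 signal from the ICR mean of each gene (colour, ending at −2 and 2) for the 86 tested ribosomal protein genes (rows, ordered by the replicate 1 shift) on the 12 arrays (columns, ages in weeks). The 3 replicate 1 columns are above the mean in 77 to 80 genes, *Rps3a* and *Rps19* at the bottom run the other way, and *Rpl30* and *Rps16* are dark blue in SD.

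Other lists that bear on translation were read beside the 42.2% of all genes called higher in replicate 1. Of 39 tested mitochondrial ribosomal protein genes, which form the separate ribosome of that organelle, 35 were higher and 0 lower (median 1.06), with *Mrpl54* at 2.32 and *Mrpl53* at 2.13. Only 8 to 12 of the 39 reached the minimum on each replicate 2 or 3 array, against 25 to 35 on the replicate 1 arrays, so most were tested through the arrays where they were high. Among the 9 with a mean SD signal of 5 or more, 9 were higher (median 1.42). Of 14 tested translation partners and other messenger RNAs that begin with the tract, 11 were higher and 1 was lower (median 0.75), and all 14 had a mean SD signal of 5 or more. *Fau* (2.34), which encodes a small-subunit protein fused to a ubiquitin-like protein, *Rack1* (1.62) and *Btf3* (1.61) were higher, and *Eif4b* (−0.28) was lower. The elongation factor genes *Eef1a1* and *Eef2* were at −0.09 and −0.04. Of 12 ribosome biogenesis genes 6 were higher, near the share of all genes (*Nop56*, at 1.08, had the smallest p). Of 15 genes of mTOR and Myc control 3 were higher, below that share and with a median of 0.08 under the 0.22 of all genes, with *Eif4ebp1*, an inhibitor of translation initiation that mTOR phosphorylates, at 1.51. Of 4 tested genes of the response to ribosome stress, *Ddit3* (1.14) and *Gadd45a* (0.76) were higher. *Ddit3* was tested only through the replicate 1 arrays. Among the 3 with a mean SD signal of 5 or more, which leave out *Ddit3*, 1 was higher (median 0.23).

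Marker genes of other cells were set beside the shift. Their counts stand beside 42.2% of all genes tested called higher and 5.57% called lower. The share called higher was below 42.2% in each of these lists. Of 6 lens epithelium genes, 0 were higher and 1 lower, and of 7 fibre genes 2 were higher and 1 was lower. The summed level of the fibre markers was between 14.55 and 14.59 (log2) in replicate 1 and between 14.51 and 14.67 in replicates 2 and 3, and that of the epithelial markers between 9.53 and 9.67 and between 9.54 and 9.71. Signals were summed off the log scale, so the fibre sum mostly follows its strongest genes. Over SD and replicates 2 and 3, *Cryba1* and *Mip* had means of 12.98 and 12.54, and *Dnase2b*, at 6.67, hardly enters the sum. Of 10 ciliary body and iris genes, 5 reached the minimum and 1 was higher in replicate 1, *Ptgds* (1.39). The summed level of the list was between 10.91 and 11.44 in replicate 1 and between 9.89 and 10.24 in replicates 2 and 3. The highest signal of any gene of the list was 11.29, that of *Ptgds*, so the sum mostly follows this gene and not the list. The pigment cell markers *Tyrp1* and *Dct* were below the minimum on all ICR arrays. Of 11 immediate early genes 2 were higher. The part of these markers in the shift was not tested.

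The shift was set beside the longest C and T run in the window around the start. Such a run can lie wholly before the annotated start, so these groups are not genes with and without the tract. Among principal genes with a promoter, the 25 with a run of 8 or more had a median shift of 1.18 and ranged from −0.33 to 2.10, and the 13 with a shorter run had a median of 0.77 and ranged from −2.25 to 2.45. *Rps24*, *Rpl10* and *Rplp0*, whose runs stand among the sequences above, were at 0.21, 0.28 and 0.24, while *Rpl36* and *Rpl29l1*, whose longest runs are of 3 bases, were at 2.45 and 2.62. Copies with and without such a run had medians of 1.44 and 1.45. These values are descriptions, with no test.

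With age, 0 of the 86 members passed the limma test from 4 to 8 weeks, from 4 to 10 weeks or from 8 to 10 weeks, nor between the 4-week arrays and the mean of both later ages. At an unadjusted p under 0.05 the counts were 0, 1, 0 and 2 members. Of all genes tested, 0%, 0.154%, 0% and 0.066% were called, and 5.41%, 11%, 1.91% and 10.2% had an unadjusted p under 0.05. The replicate number accounted for most of the spread within an age, with a median residual SD over the members of 0.75 with age alone and 0.13 with age and number. In the fit with the number as a block, 0 members were called in any of the 4 comparisons (5, 16, 10 and 12 at an unadjusted p under 0.05), beside 0.176%, 8.91%, 0.22% and 6.89% of all genes tested called and 14.3%, 26.6%, 9.26% and 24% at an unadjusted p under 0.05. With the block, the calls among all genes were 1.58% higher and 7.33% lower from 4 to 10 weeks, 0.022% and 0.154% from 4 to 8 weeks, 0% and 0.22% from 8 to 10 weeks, and 1.45% and 5.43% for both later ages. The median change from 4 to 10 weeks was −0.10 over the members and −0.10 over all genes tested.

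The members with the largest changes from 4 to 10 weeks did not pass the test. The copies *Rps26l6* and *Rpl8l1* were at −0.87 (standard error 0.49) and −0.60 (standard error 0.55), and the block gave adjusted p = 0.167 and 0.0709 from limma. *Rps26l6* was tested only through ICR 4-week replicate 1, at 5.11, and its other ICR arrays were between 2.86 and 4.38. *Rpl7l1*, a paralogue of *Rpl7* that acts in ribosome assembly, was at 6.19, 5.86 and 6.07 at 4 weeks, 5.75, 5.61 and 5.83 at 8 weeks, and 5.92, 5.66 and 5.32 at 10 weeks. It was the 1 member at an unadjusted p under 0.05 in this comparison, at −0.41 (adjusted p = 0.447 from limma), and its 8-week arrays were all below its 4-week arrays. *Rpl41* was at 10.62, 10.90 and 10.76 at 4 weeks, 11.12, 11.11 and 10.92 at 8 weeks and 11.35, 11.06 and 10.89 at 10 weeks, which gave 0.34 (adjusted p = 0.479 from limma). *Rpl7l1* and *Rpl41* were the only members without overlap between 4 and 8 weeks, 1 lower and 1 higher, beside 8.47% and 1.96% of all genes tested. Between 4 and 10 weeks 0 members were without overlap, beside 13% of all genes lower and 4.2% higher, and between 8 and 10 weeks 0, beside 3.85% and 2.73%.

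Within each replicate number the median change from 4 to 10 weeks was −0.13, −0.09 and −0.09 in numbers 1, 2 and 3, and −0.02 in SD. From 4 to 8 weeks it was 0.06, −0.05 and −0.05, and 0.04 in SD. In the pooled ages the sign of the median rested on single arrays. It was −0.52 from 4 to 10 weeks without ICR 10-week replicate 1 and 0.27 without ICR 4-week replicate 1. Without all 3 replicate 1 arrays it was −0.09, with 0 members called, beside 0.389% of all genes tested. In SD, with 1 array an age and no test, the copies *Rps15al2* (1.19), *Rps26l6* (0.81), *Rpl10l4* (0.69) and *Rpl37al2* (0.61) were more than 1.5-fold higher at 10 than at 4 weeks and 0 of the 86 were lower by as much, beside 1.12% and 9.26% of all genes tested. From 4 to 8 weeks, 4 members were higher by as much and 2 lower, beside 1.23% and 3.54%. The SD signals of *Rps26l6* and *Rpl10l4* were below 5 at all 3 ages. Those of *Rps15al2* were around the minimum, at 4.24, 5.01 and 5.43 at 4, 8 and 10 weeks.

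**Figure D4:**
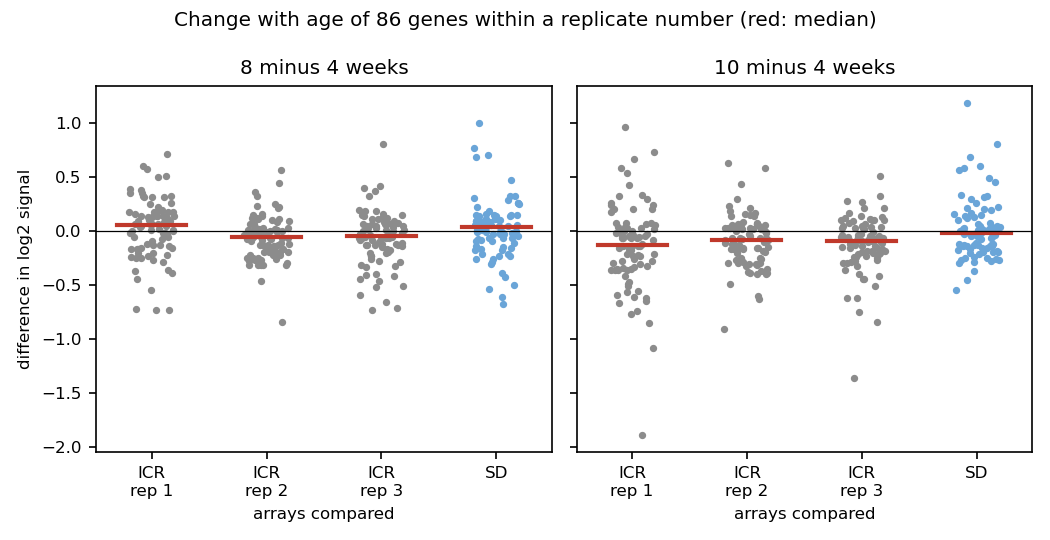
Difference in log2 signal from 4 to 8 weeks (left) and from 4 to 10 weeks (right) for each of the 86 tested ribosomal protein genes (points), taken within each ICR replicate number and within SD (x axis), with the median as a red line. The medians lie between −0.13 and 0.06.

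Between strains at matched ages, 0 of 87 members tested over all 12 arrays passed the limma test, beside 0.67% of 4627 genes (0.367% higher and 0.303% lower in ICR). The median difference, ICR minus SD, was 0.28 over the members and 0.10 over all genes. At an unadjusted p under 0.05 there were 5 members, beside 9.64% of all genes, *Rpl30* (2.25, adjusted p = 0.0901 from limma), *Rps16* (1.96, adjusted p = 0.267), *Rpl38l5* (1.04), *Rpl38l3* (0.78) and *Rplp0* (−0.29). *Rpl38l5* and *Rpl38l3* were named after their values were seen. The result depended on which ICR arrays were compared with SD. With the replicate 1 arrays alone, 70 of 87 members were higher and 5 lower than SD, beside 46% of all genes called in either direction. The median was 1.06 over the members and 0.26 over all genes. These arrays were picked for their separation, and members such as *Rps16* and *Rpl29l1* entered this fit only through them. The counts therefore describe the replicate 1 arrays and not the strain. With replicates 2 and 3 alone, 2 of 82 members were called, *Rpl30* and *Rpl38l3*, a share near the 2% of all genes called, with a median of −0.11 over the members and 0.01 over all genes.

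*Rpl30*, a large-subunit protein that in yeast also binds its own messenger RNA, was at 7.01, 6.99 and 7.08 in the 4-, 8- and 10-week SD arrays. ICR replicates 2 and 3 were at 9.01 and 8.94 at 4 weeks, 8.74 and 8.62 at 8 weeks and 8.62 and 8.43 at 10 weeks, and replicate 1 was at 10.39, 10.70 and 10.06. All 9 ICR arrays were above all 3 SD arrays, and with replicates 2 and 3 the difference was 1.70 (standard error 0.11, adjusted p = 3.36e-05 from limma). The other probe set of *Rpl30* did not share this difference. It was at 8.59, 8.64 and 8.54 in SD and between 8.18 and 8.66 in ICR replicates 2 and 3, so the groups overlapped, while its replicate 1 shift, at 1.36, had the direction of the first probe set (1.65). What sets the probe sets apart was not tested.

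*Rpl38l3*, a numbered copy of the *Rpl38* name, was at 8.76, 8.90 and 8.64 in SD, between 9.18 and 9.24 in ICR replicates 2 and 3 and at 10.09, 10.23 and 10.30 in replicate 1. The 9 ICR arrays were all above SD, and the difference with replicates 2 and 3 was 0.44 (standard error 0.08, adjusted p = 0.0259 from limma). *Rpl38l5* was at 0.56 in the same comparison (adjusted p = 0.0504). *Rps16*, of the small subunit, was at 2.47, 3.16 and 2.30 in SD and between 3.15 and 4.53 in ICR replicates 2 and 3, all below the minimum of 5, so these levels carry little weight. Differences between strains in the change with age were not called in any of the 87 members at 8 or 10 weeks with limma. Of all 4627 genes 0 were called as well, with 0.843% and 1.51% at an unadjusted p under 0.05.

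**Figure D5:**
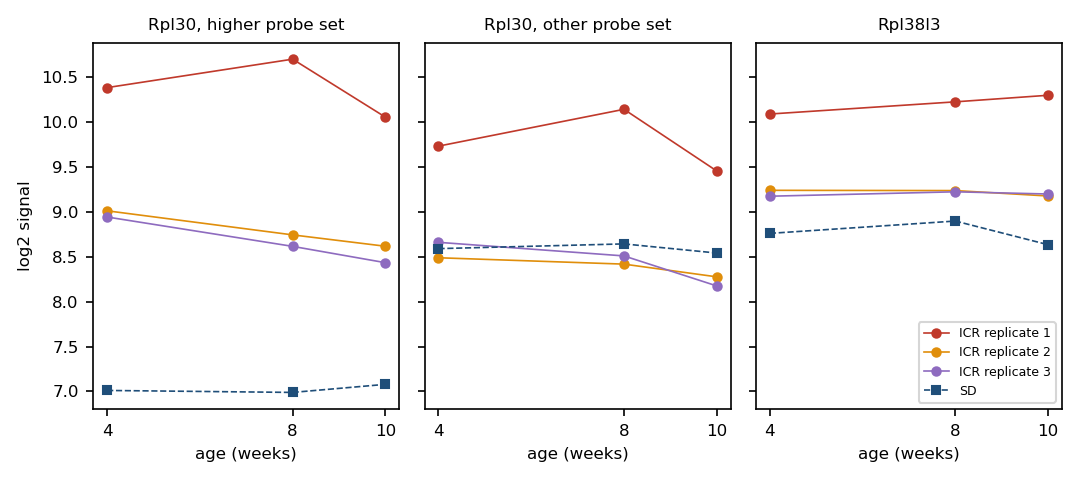
Log2 signal (y axis, shared) against age in weeks (x axis) for the used and the other probe set of *Rpl30* and for *Rpl38l3*, by ICR replicate number and in SD, 1 point per array. SD lies below all ICR arrays for the used probe set of *Rpl30* (6.99 to 7.08) and for *Rpl38l3*, and among ICR replicates 2 and 3 for the other probe set (8.54 to 8.64).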

How the data were processed

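Lens RNA was measured on GeneChip Rat Gene 2.0 ST arrays. The authors deposited 1 log2 signal for each probe set on each array, computed by Robust Multi-array Average (RMA), and these values were used unchanged. The version of that step is not given in the sources used here. The platform annotation gives 18511 of 36685 probe sets 1 gene symbol, 575 several and 17599 none listed, and the 32 with several symbols that include a ribosomal one were left out. Of the 146 members, 144 are in the RefSeq table by gene ID. Groups were taken from the sample labels.

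Genes with a signal of 5 or more on at least 1 array of a fit were tested 2-sided with limma 3.58.1 (lmFit, then eBayes; R 4.3.3), with Benjamini-Hochberg adjustment over all genes tested to 0.05. Ages were compared in one fit of the 9 ICR arrays. The replicate 1 shift had age and number as terms. Strains were compared over all 12 arrays with age as a term, where the spread comes from the ICR arrays and 1 SD array an age, and the interaction was fitted as cell means. Fits were tested on simulated data. Deviations from the age means went together in arrays of the same number (correlations of 0.547 to 0.848 across genes, every pair above 0.1). Pairs that joined numbers 2 and 3 were lower, at 0.345 to 0.508, but also above 0.1. Replicate 1 enters each age mean, so passing 0.1 does not by itself show a pairing by number. The number was also used as a block. Alternatives were other probe set summaries, filters and scalings and leaving out arrays.

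Members, lists and tests were chosen with earlier results of these data known. Named genes are those of fixed lists by role, members past the threshold (up to 10 by size), the 3 largest changes each way and up to 3 genes per companion list. Members outside that rule were named after their values were seen. Python 3.11.15 with pandas 2.3.3 and matplotlib 3.10.9 served for summaries and figures. The number of arrays limits the precision.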

Additional observations from a re-analysis of the deposited data

How the results depend on the processing

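The count of members called with age was 0 in every comparison and setting run, with and without the replicate block, and without each array in turn. The block, which pairs arrays by number, left these counts at 0, and no call of a member changed with it. For the replicate 1 shift the count of members called was 74 and lay between 72 and 75 without each array in turn, and was 72 with arrays shifted to one median and 71 with cyclic loess. With no minimum it was 86, and the median shift over all 146 members was 0.69 against 1.24 over the 86 tested. For ICR minus SD it was 0, and became 1 with arrays shifted to one median and 1 with cyclic loess. It was 75 with only the replicate 1 arrays, which were picked for their separation, and 2 with only replicates 2 and 3. The count stayed 0 without each of the 12 arrays in turn. In both scalings *Rpl30* was the member called (2.14 and 2.13). The cause was not tested. In age comparisons the median change over the members turned its sign with single arrays, between −0.52 and 0.27 from 4 to 10 weeks, −0.44 and 0.36 from 4 to 8 weeks and −0.45 and 0.35 from 8 to 10 weeks. All genes called from 4 to 10 weeks numbered 7, and 405 with the block. Signals are relative within an array, 60 members stayed below the minimum, and 1 SD array an age gives no spread of its own.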

Other observations

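Probe sets of 1 gene did not always shift alike. Of 16 members with more than 1 probe set of mean signal 5 or more, 10 had shifts of replicate 1 within 0.5 of each other, 6 had shifts more than 1 apart and 4 had shifts of opposite sign. *Rpl41* was at 0.09 in the probe set used and at −1.82 in the other, *Rpl23a* at 0.57 and −0.76, and *Rps13* at 0.24 and 1.42. The 3 probe sets of *Rps29* shifted by 1.07, 2.31 and 2.56. By contrast, the probe sets of *Rplp2* gave 1.73 and 1.76, and those of *Rpl13* 1.26 and 1.30. These genes were named after their values were seen.

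The median shift of the members was above that of other genes in each of 6 classes of mean ICR signal, a mean that includes the replicate 1 arrays. The class under 5 held 5 members, among them *Rpl10l4*, *Rpl29l1*, *Rps16* and *Rps26l6*. These were tested only through replicate 1, so the minimum favoured a positive shift in that class and it carries no weight. In genes with a mean ICR signal of 5 to 6 the median shift was 1.24 over 9 members and 0.17 over 1863 other genes. Of these members, *Rpl27al7*, *Rpl28l1*, *Rpl28l3* and *Rpl36Al2* had means of 4.49, 4.89, 4.77 and 4.91 in replicates 2 and 3. Their replicate 1 arrays brought them into the class, so it carries little weight too. In genes with a mean of 9 and over the median shift was 1.29 over 21 members and 0.13 over 74 other genes. These are medians over genes, with no test.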
